A study of Lactuca sativa with 12 samples.

Results

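Oligopeptide transporter 3 (OPT3, LOC111920790) and ferric reduction oxidase 2 (FRO2, LOC111894637) are 2 of the 2264 lettuce genes that the authors' 6 tables of differentially expressed genes list in all. They were chosen by their identifiers from the union of these tables, with their levels already known, so their levels and changes are given here as a description. The authors' own calls are quoted, and p-values of refits are given only to show how those calls depend on single libraries and settings. Whole leaves of the lettuce (Lactuca sativa) cultivar Red oak-leaf, grown in nutrient solution, were sampled at the same stage from 4 groups of 3 libraries, which the series text calls biological replicates. CK plants had neither treatment. The Cd group was grown with 10 mg/L of cadmium, the SeNP group with 3 mg/L of selenium nanoparticles made biologically, and the CdSeNP group with both at these doses. The labels name the cadmium dose once as the metal and once as a hydrated chloride salt, so the amount of cadmium ion is uncertain. The values come from leaves, and root RNA was not analysed here.

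Iron in soil or nutrient solution is mostly ferric and poorly soluble. In Arabidopsis, FRO2 is the ferric-chelate reductase of the root epidermis, which turns ferric into ferrous iron for uptake by the carrier IRT1, and its gene is switched on by bHLH transcription factors when the plant lacks iron. OPT3 in Arabidopsis is a plasma membrane carrier of the phloem companion cells, which load sugars and metals into the phloem. It moves iron from xylem to phloem, towards young leaves and seeds, and plants with too little OPT3 keep root iron uptake on although their leaves hold ample iron. Cadmium enters plants partly through carriers of iron and other divalent metals.

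The authors' limits were 0.05 for the adjusted p and 1 for the size of the log2 fold change, and genes that did not pass both are absent from a table. Library depth recovered from the files ran from 23305756 reads in SeNP 3 to 31358371 in Cd 2. The chi-square per gene between replicates was 45.4 and 47.7 for CK 2 against the other controls. It ran from 5.59 to 14.2 for all other pairs, so CK 2 stood apart. For OPT3 and FRO2, refits without CK 2 are given in the comparisons with CK. The levels of other genes, the list counts and the correlations include it. In bulk leaf RNA, more cells of a type and more RNA per cell cannot be told apart.

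The level of OPT3 was low in leaves without cadmium and high in leaves with it, with or without nanoparticles. The gene (chromosome 7, 16632456 to 16635576, minus strand, a whole-gene span in the files that matches the RefSeq assembly Lsat_Salinas_v11) stood at 7.25, 6.59 and 8.498 FPKM (fragments scaled to gene length and library total) in CK 1 to CK 3. It stood at 56.1, 54.0 and 54.3 FPKM in Cd 1 to Cd 3. All 3 cadmium libraries lay far above all 3 controls, and the lowest of them was 6.36 times the highest control. In SeNP 1 to SeNP 3 the level was 7.06, 6.34 and 6.22 FPKM, within or just below the range of the controls. In CdSeNP 1 to CdSeNP 3 it was 51.0, 57.3 and 55.3 FPKM, a range that encloses all 3 values of Cd.

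The group means of OPT3 were therefore ordered SeNP, CK, CdSeNP and Cd, at 6.54 ± 0.457, 7.45 ± 0.968, 54.5 ± 3.19 and 54.8 ± 1.15 FPKM (SD, n = 3 each). Neighbours in this order overlapped within the pair without cadmium and within the pair with cadmium, and the step between the pairs was the only one wider than the spread of replicates. These levels rest on many reads, from 364 counts in SeNP 3 to 4290 in Cd 1. The spread of replicates was 2.1% of the mean in Cd and 5.84% in CdSeNP, against counting errors of 1.55% and 1.68%, and 13% in CK against 4.45%.

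FRO2 followed the same order at a far lower level. The gene (chromosome 7, 4443356 to 4447988, plus strand) stood at 0.183, 0.229 and 0.187 FPKM in CK 1 to CK 3 and at 1.12, 0.833 and 1.05 FPKM in Cd 1 to Cd 3. The lowest cadmium library was 3.63 times the highest control. SeNP 1 to SeNP 3 held 0.113, 0.217 and 0.107 FPKM, with SeNP 2 inside the range of the controls and the other libraries below it. CdSeNP 1 to CdSeNP 3 held 0.766, 0.994 and 0.870 FPKM, which overlaps Cd and lies above every library without cadmium.

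The reads behind FRO2 were few. They numbered 12, 15 and 12 in CK, 82, 63 and 73 in Cd, 7, 15 and 6 in SeNP, and 46, 57 and 60 in CdSeNP. For the 6 reads of SeNP 3 the exact 95% Poisson interval runs from 2.2 to 13.1 counts, and for the 15 of SeNP 2 from 8.40 to 24.7, so these libraries could not be told apart at this depth (intervals cover counting error only). The group means were 0.146 ± 0.062 in SeNP, 0.1996 ± 0.026 in CK, 0.877 ± 0.114 in CdSeNP and 0.999 ± 0.148 FPKM in Cd (SD, n = 3). As for OPT3, the groups without cadmium overlapped each other, the groups with cadmium overlapped each other, and no library of the first lay within the range of the second.

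**Figure D1:**
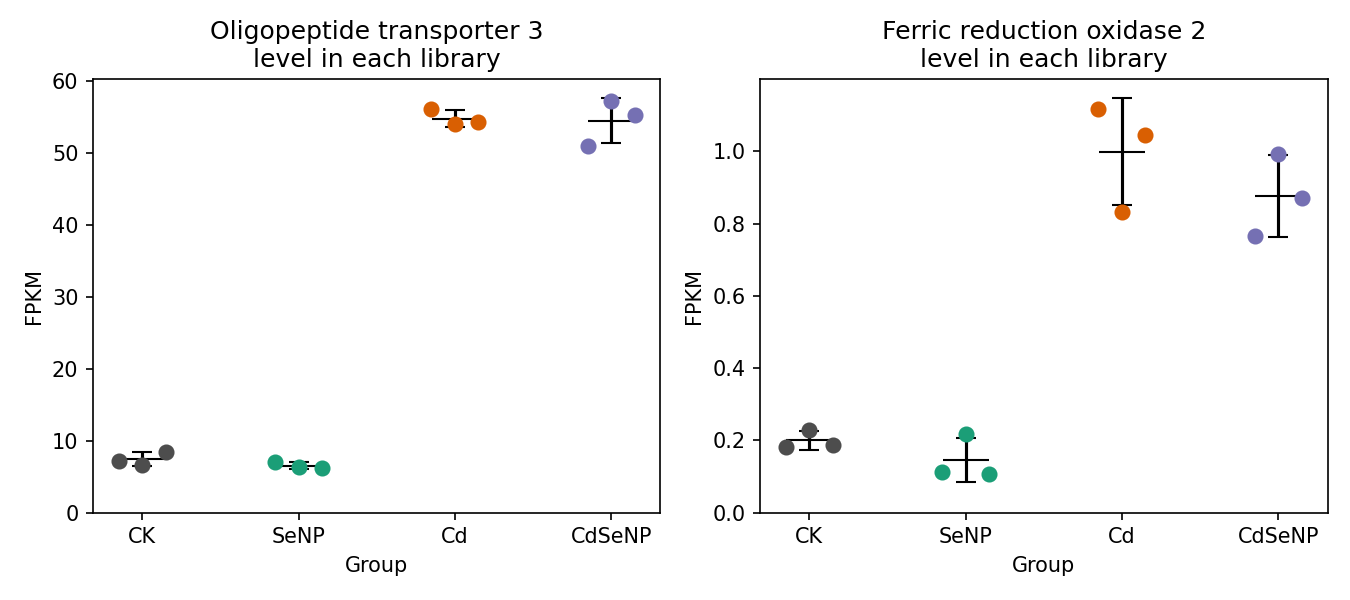
Level of OPT3 (left) and FRO2 (right) in FPKM by group; points are single libraries, horizontal lines the mean of 3 libraries and bars the SD. For OPT3 the 6 libraries without cadmium lie between 6.22 and 8.498 FPKM and the 6 with cadmium between 51.0 and 57.3, and for FRO2 the same libraries lie at or below 0.229 and at or above 0.766.

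Both genes are listed in the same 4 of the 6 tables, those that set leaves with cadmium against leaves without it. In Cd over CK, 4.85% of the 23049 genes tested were called, and both genes were among the 799 higher ones, which are 3.47%. The authors' deposited table gives OPT3 2.76 on the log2 scale, with a standard error of 0.12 worked back from the p, and only 6 of the 1119 listed genes had a smaller p. It gives FRO2 2.2 on the same scale (recovered standard error 0.35), at rank 241 of the 1119 by p. By size of change, OPT3 ranked 66 among the 799 higher genes, and the median of these genes was 1.38. In mean FPKM, OPT3 was 7.36-fold and FRO2 5.00-fold higher in Cd. Against scaling to library totals, the authors' scaling shifted the log2 changes of this comparison by a median of -0.12, and those of SeNP over Cd by 0.10. An edgeR refit without CK 2 gave log2 changes of 2.80 for OPT3 and 2.42 for FRO2. The refit without Cd 3 kept the size for FRO2, 2.28, but missed the authors' limit (edgeR's quasi-likelihood test, adjusted p = 0.054).

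In CdSeNP over CK, which shares its controls with the comparison just described, 2.57% of the genes tested were called, and both were among the 285 higher ones, 1.25%. The authors' deposited table gives log2 fold changes of 2.78 for OPT3 (recovered standard error 0.12) and 2.05 for FRO2 (0.37). In mean FPKM these are 7.33-fold and 4.39-fold. Without CK 2 the edgeR refit gave 2.79 for OPT3 and 2.23 for FRO2. The refit without CdSeNP 2 gave 2.03 for FRO2 and only just met the authors' limit (edgeR's quasi-likelihood test, adjusted p = 0.0498).

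The remaining pair of tables has nanoparticle-treated leaves as the low group. In CdSeNP over SeNP, 3.87% of the genes tested were called and 3.24% were higher, and the authors' deposited table gives 3.02 for OPT3 and 2.52 for FRO2 (recovered standard error 0.39) on the log2 scale. In SeNP over Cd, 2.18% were called and 1.51% were lower, and the authors' deposited table gives -2.97 for OPT3 and -2.65 for FRO2 (recovered standard error 0.38). The p of OPT3 is deposited as 0 in both tables, as for 10 and 8 listed genes in all, so no standard error could be recovered for it. Cadmium added to nanoparticle-treated leaves thus went with an 8.34-fold higher mean FPKM of OPT3 and a 6.02-fold higher one of FRO2.

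**Figure D2:**
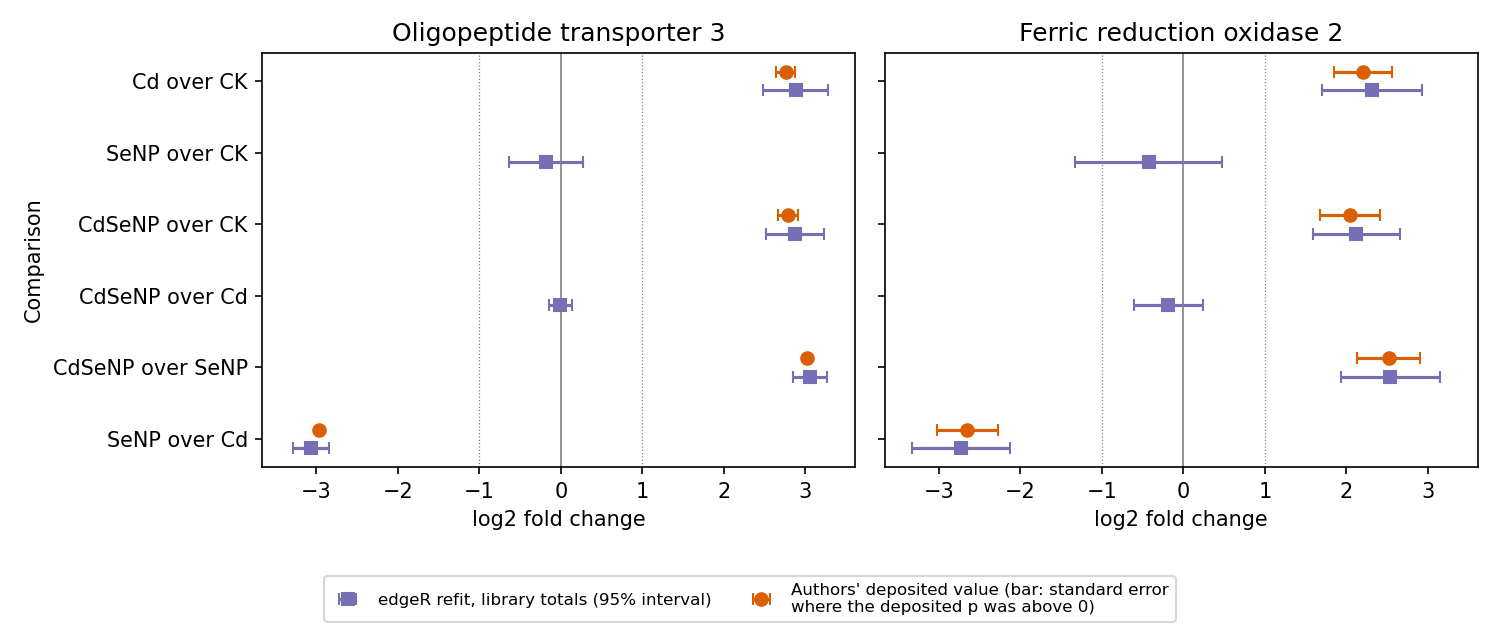
Log2 fold change of OPT3 (left) and FRO2 (right) in the 6 comparisons; circles are the authors' deposited values, with bars for the standard error recovered where the deposited p was above 0, squares are edgeR refits with 95% intervals, and dotted lines mark the authors' fold limit. The 4 comparisons across cadmium lie beyond the limit for both genes. SeNP over CK and CdSeNP over Cd, for which the tables list neither gene, lie within it. The 95% interval of FRO2 in SeNP over CK, from -1.32 to 0.47, passes the lower limit.

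Nanoparticles changed neither gene past the authors' limits. Neither is listed in SeNP over CK, where 3.31% of the genes tested were called, nor in CdSeNP over Cd, where 1.87% were. For OPT3, the edgeR refit gave a log2 difference of -0.19 in SeNP over CK, with a 95% interval from -0.64 to 0.27. Without CK 2 this was -0.27, and without CK 3 it was -0.08. In CdSeNP over Cd it gave -0.01, with an interval from -0.15 to 0.14, which holds the fold between 0.901 and 1.10. For FRO2 the difference was -0.43 in SeNP over CK (95% interval -1.32 to 0.47) and -0.19 in CdSeNP over Cd (-0.61 to 0.24). Single libraries moved these differences: that of SeNP over CK was -0.85 without SeNP 2, -0.27 without SeNP 1, -0.26 without SeNP 3 and -0.31 without CK 2, and that of CdSeNP over Cd ran from -0.30 to -0.098. No refit that left out a library made a call for either gene in these comparisons. The interval of FRO2 in SeNP over CK is wide enough to hold a fall of 1 log2 unit, so such a difference was not detectable with these few reads.

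The difference between leaves with and without cadmium was also set side by side in the presence and absence of nanoparticles. On the scale of log2(FPKM + 0.1), OPT3 was 2.87 higher in Cd than in CK and 3.04 higher in CdSeNP than in SeNP, a difference of 0.17 with a standard error of 0.13. FRO2 was 1.87 and 2.01 higher, a difference of 0.14 with a standard error of 0.26. Leaving out each library in turn, the difference ran from 0.07 to 0.25 for OPT3 and from 0.03 to 0.34 for FRO2. With a pseudocount of 1 the difference for FRO2 was -0.022. Neither difference was tested.

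OPT3 and FRO2 rose together, but their ratio was not fixed. Per length and library total, OPT3 was 28.7 to 45.5 times as abundant as FRO2 in CK, 50.2 to 64.9 times in Cd, 29.2 to 62.4 times in SeNP and 57.6 to 66.6 times in CdSeNP. The lowest ratios were those of CK 2 and SeNP 2, the libraries of their groups with 15 reads of FRO2. Across all 12 libraries Pearson's r of log2(FPKM + 0.1) was 0.98, but the libraries form separate clusters with and without cadmium. Within the 6 libraries with cadmium r was 0.72, and within the 6 without it 0.13. These values are descriptive and share the library totals by which both genes were scaled.

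**Figure D3:**
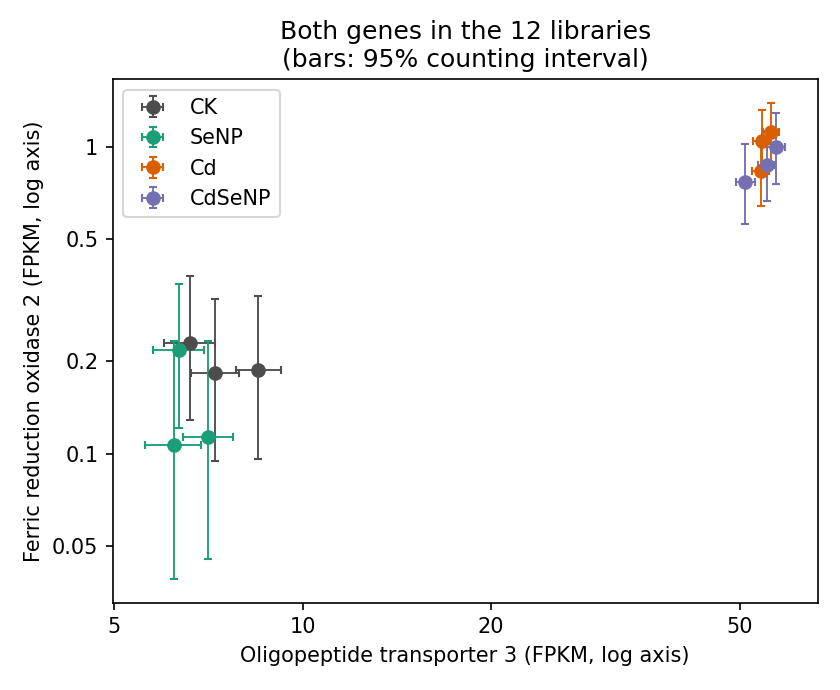
FRO2 against OPT3 in the 12 libraries, both in FPKM on log axes, coloured by group; bars are exact 95% Poisson intervals of the counts behind each value. The libraries form a cluster without cadmium and a cluster with it, and the vertical bars of FRO2 overlap within each cluster.

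The tables list 5 other genes of the same families, and these did not all follow the 2 genes. A second gene named oligopeptide transporter 3 (LOC111905484, chromosome 1, 246660331 to 246664843) was more abundant in SeNP and differed less between SeNP and the groups with cadmium. It stood at 21.7, 21.2 and 21.5 FPKM in SeNP, 49.98, 45.4 and 48.6 in Cd, and 44.5, 44.2 and 44.6 in CdSeNP. The authors' deposited tables give it a log2 fold change of 1.00 in CdSeNP over SeNP and -1.06 in SeNP over Cd, just past the fold limit, against 3.02 and -2.97 for LOC111920790. It is not listed in any comparison with CK, so its control level was not analysed here. In Cd its mean, 48.0 ± 2.33 FPKM (SD, n = 3), was close to the 54.8 ± 1.15 FPKM of LOC111920790, while in SeNP it was 21.5 ± 0.264 against 6.54 ± 0.457.

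A gene described as chloroplastic ferric reduction oxidase 7-like (LOC128129550, on an unplaced scaffold) belongs to the family of FRO2. In Arabidopsis FRO7 reduces iron at the chloroplast envelope. It stood at 0.082, 0.049 and 0.015 FPKM in SeNP, 0.611, 0.760 and 0.812 in Cd, and 0.888, 0.649 and 0.748 in CdSeNP, a range that does not overlap SeNP. The authors' deposited tables give it log2 fold changes of 3.90 in CdSeNP over SeNP and -3.77 in SeNP over Cd, and it too is listed in no comparison with CK. All its SeNP levels lie below the lowest level of FRO2, 0.107 FPKM in SeNP 3, so the size of these changes is uncertain. Reads shared between near-identical copies of these families would make the values of single members uncertain, and how the authors' counting treated such reads is not given in the sources used here.

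Oligopeptide transporter 5 (LOC111886248, chromosome 4) went the other way. It fell from 21.7 ± 5.26 FPKM in CK to 9.77 ± 0.303 in Cd and 10.1 ± 0.564 in CdSeNP (SD, n = 3), with log2 fold changes of -1.27 and -1.19 in the authors' deposited tables. CK 2 lay at 15.7 FPKM, between the other controls at 25.5 and 23.9 and the treated libraries.

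The metal-nicotianamine transporters YSL3, which in Arabidopsis carry iron and copper bound to the chelator nicotianamine, were lower with nanoparticles alone. LOC111876026 stood at 8.93 ± 0.907 FPKM in CK, 8.75 ± 0.507 in Cd, 3.09 ± 0.249 in SeNP and 6.60 ± 0.385 in CdSeNP (SD, n = 3), and the authors' deposited table gives -1.56 for SeNP over CK. LOC111920401 fell from 80.7 ± 10.7 FPKM in CK to 40.01 ± 3.49 in Cd and 26.2 ± 2.92 in SeNP, at log2 fold changes of -1.13 and -1.66 in the authors' deposited tables. All 7 genes of these families are in the list because some table called them, so their counts are set beside the 2264 listed genes as well as all genes tested. In Cd over CK, the 2 higher of the 7 were OPT3 and FRO2 themselves and 2 others were lower, where 35.3% of the listed genes were higher and 14.1% lower (3.47% and 1.39% of all genes tested). In CdSeNP over SeNP, 5 were higher and none was lower, 3 of them besides OPT3 and FRO2, where 32.7% of the listed genes were higher and 6.3% lower (3.24% and 0.625% of all genes tested). In SeNP over Cd the counts were 0 higher and 5 lower, where 6.8% and 15.3% of the listed genes were (0.67% and 1.51% of all genes tested).

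Most listed regulators of the iron-deficiency response were higher with cadmium, as OPT3 and FRO2 were. Of 9 listed genes of this group, 5 were higher and 1 lower in Cd over CK, where 35.3% of the 2264 listed genes were higher and 14.1% lower. In CdSeNP over CK 6 were higher and none lower (12.6% and 13.4% of listed genes), and in CdSeNP over SeNP 7 were higher and none lower (32.7% and 6.3%). In SeNP over CK, where OPT3 and FRO2 are not listed, none was higher and 2 were lower (12.5% and 20.7%). Over the 6 regulators listed in Cd over CK, the median log2 fold change there was 5.26, against 1.19 over the whole table. ORG2 and bHLH100 belong to the bHLH factors that in Arabidopsis act with FIT on the FRO2 and IRT1 genes. The ORG2 gene LOC111878349 had no counts in CK or SeNP and stood at 13.2 ± 0.616 FPKM in Cd and 12.4 ± 0.454 in CdSeNP (SD, n = 3). bHLH100 (LOC111878325) stood at 0.120 ± 0.012 FPKM in SeNP and 9.14 ± 0.450 in CdSeNP, a log2 fold change of 6.20 in the authors' deposited table.

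The genes named bHLH47 split. In Arabidopsis bHLH47 is POPEYE, a repressor within the iron-deficiency response. LOC111906812 stood at 1.63 ± 0.141 FPKM in CK, 2.05 ± 0.171 in SeNP, 22.3 ± 0.992 in Cd and 21.8 ± 0.321 in CdSeNP (SD, n = 3), and the authors' deposited tables give 3.65 for both comparisons with CK. LOC111911448 stood at 38.3 ± 3.12 FPKM in CK, 34.9 ± 0.951 in SeNP and 17.4 ± 0.244 in Cd, a log2 fold change of -1.25 in Cd over CK in the authors' deposited table.

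Most listed genes of iron storage were lower with cadmium. Of 5 listed genes for iron storage and iron cofactor proteins, 4 were lower and none higher in Cd over CK. There, 14.1% of the 2264 listed genes were lower and 35.3% higher. The same counts held in CdSeNP over CK, where 13.4% of listed genes were lower and 12.6% higher. These 4 were also higher in SeNP over Cd and 1 was lower, where 6.8% of listed genes were higher and 15.3% lower. Ferritins store iron in the plastid. Ferritin-4 (LOC111919692) stood at 83.1 ± 3.90 FPKM in SeNP and 4.84 ± 0.218 in CdSeNP, ferritin LOC111908574 at 185 ± 10.4 and 34.2 ± 3.86, and ferritin-4 LOC111879873 at 131 ± 1.96 and 40.6 ± 0.666 (SD, n = 3). The fifth gene, the iron superoxide dismutase LOC111905867, has another pattern, with 19.99 ± 2.99 FPKM in SeNP against 129 ± 4.79 in CdSeNP and 139 ± 0.090 in CK.

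Of the iron mobilisers, only 2 genes are listed. Scopoletin 8-hydroxylase (LOC111902368), which in Arabidopsis makes the iron-mobilising coumarin fraxetin, differed from OPT3 and FRO2 in its response to the combined treatment. It stood at 0.387, 0.149 and 0.061 FPKM in CK, 1.33, 2.84 and 1.68 in Cd, and 0.098, 0.034 and 0.566 in CdSeNP. The authors' deposited tables give it 3.17 in Cd over CK and -3.01 in CdSeNP over Cd, a table in which neither OPT3 nor FRO2 is listed. Nicotianamine synthase (LOC111878037) stood at 0.540 ± 0.225 FPKM in SeNP and 1.76 ± 0.333 in Cd, a log2 fold change of -1.60 in SeNP over Cd in the authors' deposited table. It was also lower in SeNP over CK, at -1.83, and is not listed in Cd over CK, where FRO2 and OPT3 are.

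Other metal carriers were mixed. Of 16 listed, 8 were higher and 4 lower in Cd over CK, where 35.3% of the 2264 listed genes were higher and 14.1% lower. In CdSeNP over CK 5 were higher and 3 lower (12.6% and 13.4% of listed genes), and in CdSeNP over SeNP 7 were higher and 2 lower (32.7% and 6.3%). The vacuolar metal exporters Nramp3 had the plateau of OPT3: LOC111896352 stood at 22.5 ± 0.492 FPKM in SeNP and 72.5 ± 2.14 in CdSeNP, and LOC111902752 at 5.37 ± 0.267 and 20.7 ± 0.903 (SD, n = 3). Zinc transporter 1 (LOC111897073) did not, with 4.36 ± 0.548 FPKM in Cd and 1.67 ± 0.475 in CdSeNP, a log2 fold change of -1.33 in CdSeNP over Cd in the authors' deposited table. Nramp6 (LOC111892195) fell from 7.62 ± 0.749 FPKM in CK to 3.39 ± 0.490 in Cd. Copper transporter 5 (LOC111893192) stood at 47.1 ± 7.68 FPKM in SeNP and 131 ± 3.80 in CdSeNP. It was lower with nanoparticles alone, at a log2 fold change of -1.69 in SeNP over CK in the authors' deposited table. It is listed neither in Cd over CK nor in CdSeNP over CK. The putative inactive ATPase HMA3 (LOC111906143) stood at 9.15 ± 0.855 FPKM in SeNP and 25.5 ± 3.36 in Cd.

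The 5 iron lists hold 39 listed genes in all, OPT3 and FRO2 included. In SeNP over CK, 1 of them was higher and 10 (25.6%) were lower, near the 20.7% of all 2264 listed genes that were lower there, while 12.5% of listed genes were higher (1.24% of all genes tested were higher and 2.07% lower). In CdSeNP over Cd, 1 was higher and 4 (10.3%) were lower, against 11.1% and 8% of listed genes (1.09% and 0.788% of all genes tested). In CdSeNP over CK, 13 (33.3%) were higher and 8 (20.5%) lower, against 12.6% and 13.4% of listed genes (1.25% and 1.33% of all genes tested). In Cd over CK, 16 (41%) were higher, near the 35.3% of listed genes, and 11 (28.2%) lower, against 14.1% (3.47% and 1.39% of all genes tested). In CdSeNP over SeNP, 21 (53.8%) were higher and 6 (15.4%) lower, against 32.7% and 6.3% of listed genes (3.24% and 0.625%). In SeNP over Cd, 8 (20.5%) were higher and 24 (61.5%) lower, against 6.8% and 15.3% (0.67% and 1.51%).

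**Figure D4:**
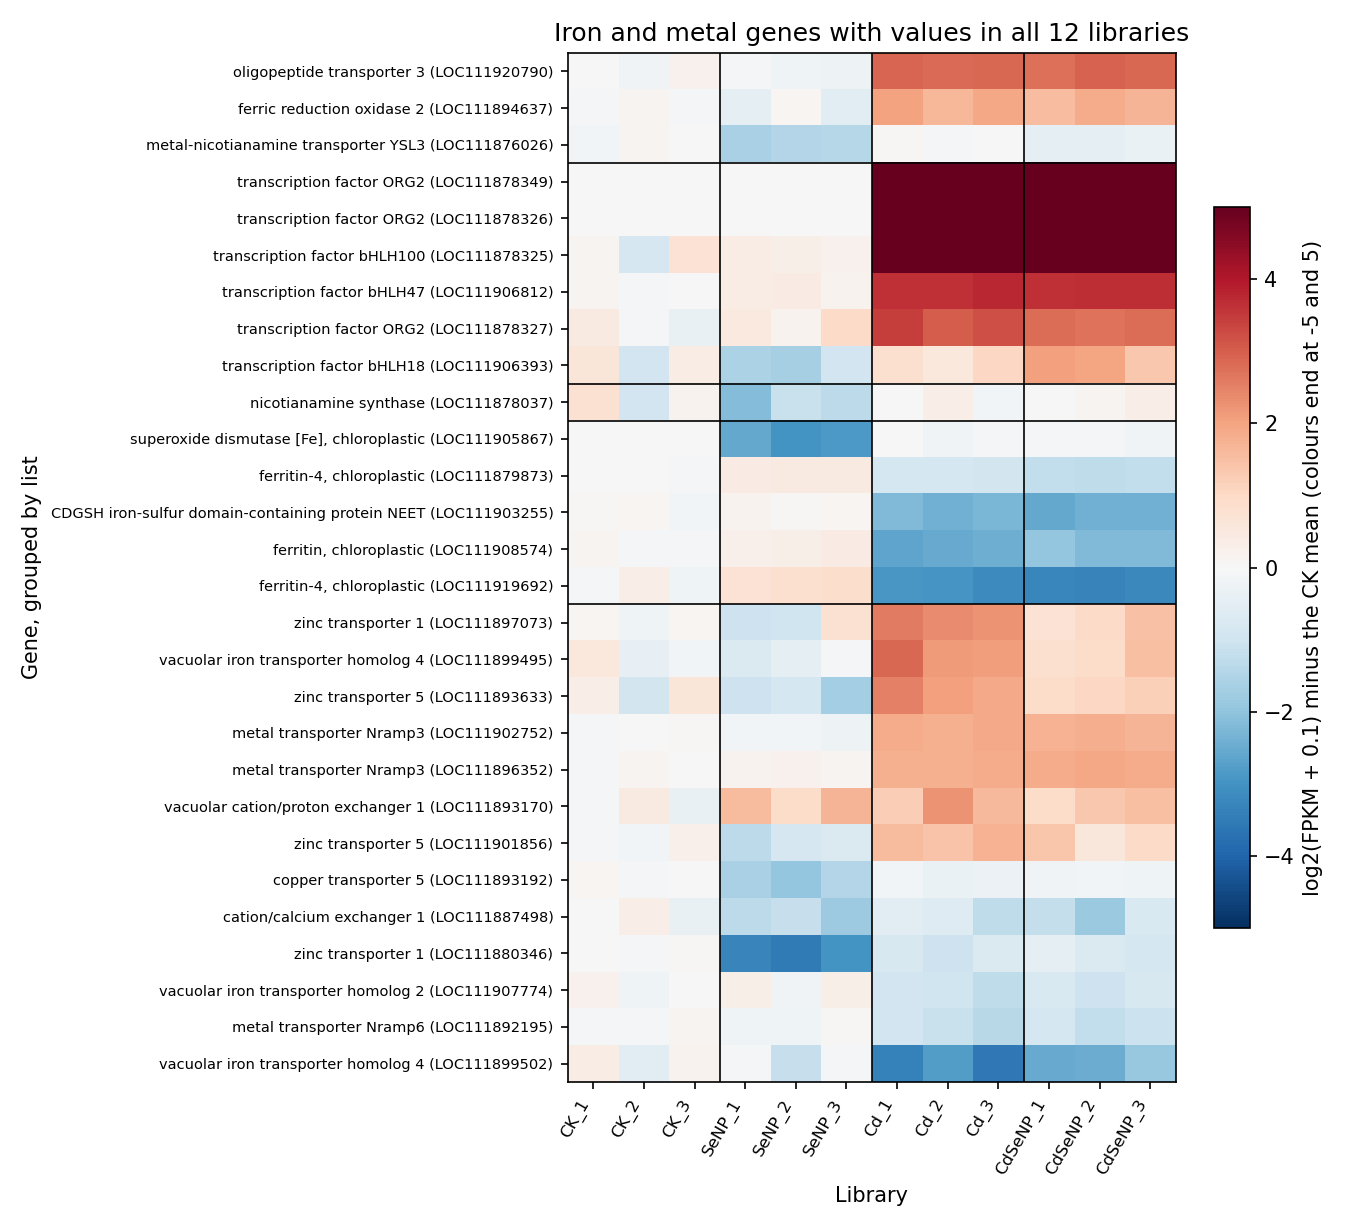
The 28 listed iron and metal genes with values in all 12 libraries; colour is log2(FPKM + 0.1) minus the CK mean, columns are libraries by group, and rows are grouped by list and sorted by the Cd mean. OPT3 and FRO2 are red in the 6 libraries with cadmium, as are ORG2, bHLH100, bHLH47 (LOC111906812) and Nramp3, while the ferritins are blue there.

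Many listed genes shared the pattern of OPT3 and FRO2. Among the other 574 genes with values in all 12 libraries, 59 had a Pearson r over 0.9 with OPT3 and 69 an r under -0.9, and for FRO2 these numbers were 56 and 63. A gene has all 12 values only where tables that together cover the 4 groups list it. This can favour genes that differ with cadmium, so these counts are not shares of all genes. The 6 described genes most like OPT3 were Nramp3 (LOC111902752), the ORG2 genes LOC111878326 and LOC111878349, EPIDERMAL PATTERNING FACTOR-like protein 1 (LOC111910137), plastid-lipid-associated protein 14 (LOC111900455) and oleosin L (LOC111905845), with r between 0.9966 and 0.9976. The genes most like FRO2 were the same Nramp3, serine carboxypeptidase-like 13 (LOC111900976), ORG2 LOC111878326, EPIDERMAL PATTERNING FACTOR-like protein 1, an ABC transporter of family C (LOC111909540) and OPT3, with r between 0.976 and 0.986. These r span the clusters with and without cadmium. Within the 6 libraries with cadmium they lay between -0.13 and 0.57 for the genes like OPT3 and between 0.59 and 0.83 for those like FRO2. Within the 6 libraries without cadmium, r with OPT3 was 0.79 for Nramp3, 0.77 for plastid-lipid-associated protein 14 and 0.87 for oleosin L, and r with FRO2 ran from 0.13 for OPT3 to 0.69 for Nramp3. The ORG2 genes and EPIDERMAL PATTERNING FACTOR-like protein 1 are at 0 in those libraries and have no r there.

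Levels of these genes show how differently large the same step can be. Plastid-lipid-associated protein 14 stood at 14.0 ± 1.30 FPKM in CK, 11.3 ± 0.660 in SeNP, 121.4 ± 8.498 in Cd and 145 ± 6.47 in CdSeNP (SD, n = 3). Oleosin L, a protein of oil bodies, stood at 1.19 ± 0.342, 0.929 ± 0.169, 55.7 ± 1.83 and 38.1 ± 1.76 FPKM in the same order. Serine carboxypeptidase-like 13 stood at 8.36 ± 0.848, 7.45 ± 0.350, 21.6 ± 0.125 and 19.9 ± 0.598 FPKM.

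OPT3 and FRO2 lie on the same chromosome, and neither has a listed gene as its direct neighbour. The RefSeq neighbours of OPT3, 14.6 kb before and 80.3 kb after it, are not listed in any table, and neither are those of FRO2, 51.2 kb before and 79.8 kb after it. The neighbour after OPT3 is a snoRNA gene. The nearest listed gene before OPT3 is a BTB/POZ domain protein (LOC111907184) at 110 kb, with 0.246 ± 0.051 FPKM in SeNP and 0.544 ± 0.060 in Cd. The nearest after it (LOC111882779, uncharacterized) lies at 157 kb and was lower in SeNP, at 2.17 ± 0.591 FPKM against 5.51 ± 0.490 in CK and 6.03 ± 0.696 in Cd. On the sides of FRO2 the nearest listed genes are LOC111894641 (uncharacterized, 248 kb), with 0.529 ± 0.156 FPKM in CK, 1.77 ± 0.137 in Cd and 1.11 ± 0.079 in SeNP, and origin of replication complex subunit 5 (LOC111902671, 992 kb). The latter stood at 0.201 ± 0.198 FPKM in CK and 1.20 ± 0.194 in Cd.

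Leaf markers were high in all groups, but lower with cadmium. The 21 chlorophyll a-b binding and Rubisco small subunit genes with 12 values summed to between 16488 and 17765 FPKM in CK, 17569 and 18105 in SeNP, 7527 and 8241 in Cd, and 7160 and 7599 in CdSeNP. Of the 25 listed anywhere, 22 were lower and none higher in Cd over CK, where 14.1% of the 2264 listed genes were lower and 35.3% higher. Of the phloem markers 5 genes are listed, 4 of them F-box proteins that match through the name of phloem protein 2. Of these 5, 4 were higher and none lower in CdSeNP over SeNP, where 32.7% of the 2264 listed genes were higher and 6.3% lower. In Cd over CK 1 was higher (35.3% of listed genes), and in CdSeNP over Cd 1 was higher and 1 lower (11.1% and 8%). In CdSeNP over CK 1 was higher (12.6%), and 1 was lower in SeNP over CK (20.7%) and in SeNP over Cd (15.3%). The F-box proteins VBF (LOC111884246) and SKIP3 (LOC111917189), with log2 fold changes of 1.17 and 1.18 in CdSeNP over SeNP in the authors' deposited table, are among the higher ones, and this VBF gene was also higher in CdSeNP over Cd, at 1.11. The gene that is no F-box protein, sieve element occlusion B (LOC111905572), stood at 6.27 ± 0.890 FPKM in Cd and 3.02 ± 0.398 in CdSeNP. It is listed in CdSeNP over Cd alone, so its levels without cadmium were not analysed here. F-box protein PP2-B15, with 12 values, ran from 3.79 to 6.69 FPKM in CK, 1.11 to 1.93 in SeNP, 23.6 to 39.7 in Cd and 18.5 to 18.8 in CdSeNP. Of the root words 4 listed genes match, all by secondary names. In Cd over CK 1 of them was lower, where 14.1% of listed genes were lower. In CdSeNP over CK 2 were lower (13.4%), and in CdSeNP over Cd 1 was higher and 2 were lower (11.1% and 8%). No xylem marker is listed. The part of a shift in cell types in the levels of OPT3 and FRO2 was not tested.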

How the data were processed

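The submitters' processing notes name HISAT2 2.2.1, StringTie 2.2.1, fastp 0.23.0, DESeq2 1.34.0 and Trimmomatic, with no role or order. For the genome build, the counting program and its strand setting, the entry is: not given in the sources used here. Per the file headers, each table holds whole-number read counts and FPKM of every library in it. Each also holds log2 fold changes and p-values that the authors deposited for their comparison, raw and adjusted. Values of a gene were joined over the 6 tables, which gave all 12 libraries for 575 genes, with 0 disagreements. All 2102 RefSeq identifiers had the start and end of Lsat_Salinas_v11, and 162 were added by the authors.

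The 2 genes, the lists and the words matched on RefSeq, Swiss-Prot and NR descriptions were chosen with earlier results of these data known. Since the tables hold called genes alone, no test across all genes was run. How far the adjustment raised each p gave the number of genes tested. Library totals were recovered by comparing counts with FPKM in genes of at least 200 counts. Standard errors were recovered as the log2 fold change over the normal quantile of p. Refits used edgeR 4.0.16 and DESeq2 1.42.0 on the genes with counts in all 6 libraries compared, scaled to library totals, with Benjamini-Hochberg adjustment over the number of genes tested, and were tested on simulated data. Such genes were mostly called ones, so the spread shared among them may differ from that of all genes.

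Named were both genes, the listed members of their families, the 6 described genes with a mean of at least 1 FPKM most like each, up to 3 genes with the smallest p per list and table, and the nearest listed neighbours.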

Additional observations from a re-analysis of the deposited data

How the results depend on the processing

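Over 416 genes, deviations of same-numbered libraries from their group means correlated between 0.12 and 0.46 for number 1, 0.036 and 0.55 for number 2 and -0.38 and 0.17 for number 3. Not every pair was above 0.1, so the numbers were not taken to pair the libraries. With the replicate number as a block, edgeR gave OPT3 2.89 and FRO2 2.30 in Cd over CK and changed no call of either gene. No call changed with edgeR or DESeq2 scaled to library totals or with a filter of at least 10 counts in 3 libraries. Leaving out single libraries, FRO2 in Cd over CK ran from 2.22 to 2.43, with an edgeR adjusted p of 0.054 without Cd 3 (range 2.8e-05 to 0.054). OPT3 in CdSeNP over Cd ran from -0.044 to 0.038, the latter without CdSeNP 1, and was above 0 also without Cd 1, so it has no direction. With log2(FPKM + 1), FRO2 fell under the fold limit, at 0.73 in Cd over CK, 0.64 in CdSeNP over CK, 0.71 in CdSeNP over SeNP and -0.80 in SeNP over Cd, because the added 1 exceeds most of its levels.

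The fold limit was also raised to 2 on the log2 scale, with counts of all genes listed for the comparison in brackets. The lower genes of the 5 iron lists went from 11 to 4 in Cd over CK (320 to 24). They went from 10 to 3 in SeNP over CK (468 to 39) and from 8 to 4 in CdSeNP over CK (303 to 37). In CdSeNP over Cd they went from 4 to 1 (182 to 20), and in SeNP over Cd from 24 to 15 (347 to 81). The higher genes went from 1 to 0 in SeNP over CK (282 to 14) and 13 to 7 in CdSeNP over CK (285 to 60). In CdSeNP over Cd they went from 1 to 0 (251 to 13). In CdSeNP over SeNP they went from 21 to 13 (741 to 129), and in SeNP over Cd from 8 to 4 (154 to 23). By Spearman's rank, 2 of the 6 genes most like OPT3 were shared. Depth limits FRO2, with 6 to 15 reads in libraries without cadmium.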
